A study of Mus musculus with 8 samples.

Results

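Liver X receptors (LXR) are nuclear receptors that bind oxidised cholesterol derivatives and, paired with a retinoid X receptor (RXR), switch on genes that move cholesterol out of cells. The 10 genes described here are the 2 LXR genes (Nr1h2 and Nr1h3), the efflux transporter genes Abca1 and Abcg1, the lipoprotein genes Apoe, Pltp and Lpl, the ubiquitin ligase gene Mylip, and Npc1 and Npc2, which release cholesterol from lysosomes. They were picked by symbol from a table of 24537 genes, chosen on what is known of the pathway and on their counts in these same tumours, which earlier results had already shown. Their values in the tumours labelled KO and WT are therefore a description and carry no test. All 10 are protein-coding and passed the filter on low counts. Positions given for them are those of the counted RefSeq transcript in the mm10 build.

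Pancreatic tumours of 8 FVB/NJ mice were taken at 44 to 49 days of age and dissociated, and RNA of their FACS-sorted EpCAM-positive cells was sequenced, with 1 library per tumour. The 4 tumours labelled KO carried floxed Lifr alleles on both chromosomes (f/f), Lifr being the receptor subunit for leukaemia inhibitory factor. The 4 labelled WT were of unequal genotype, with 1 floxed allele (f/+) in replicates 1 and 2 and none (+/+) in replicates 3 and 4. All 8 mice carried Pdx1-Cre, whose promoter is active in the pancreatic epithelium, together with floxed Trp53 on both chromosomes, Rosa26LSL-Luc (a luciferase reporter) and 1 conditional oncogene allele. The series asked how gene expression differs in these cells with Lifr deficiency.

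In macrophages and other cells, ABCA1 and ABCG1 pass cholesterol to lipoprotein particles, APOE is carried on those particles, and PLTP transfers phospholipid between them. Abca1, Abcg1, Pltp and Mylip are known LXR targets, and so are Apoe and Lpl in macrophages among other cells. MYLIP marks lipoprotein receptors for degradation and so limits cholesterol uptake. Macrophages are rich in this pathway.

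Counts per tumour summed to 14938875 to 22698340. Lifr, the targeted gene, was at 183 ± 34.5 CPM (counts scaled to a library of 1000000, after TMM scaling) in the tumours labelled KO and at 97.8 ± 22.2 CPM in those labelled WT (SD, n = 4 each). This goes against the labels, and the log2 fold change was 0.90 under TMM (0.78 to 1.05 with any 1 tumour left out), 1.68 with libraries scaled to the epithelial list and −0.28 with libraries scaled to the macrophage list. The labels do not say which exon was floxed, and a count summed over the transcript cannot show its loss, so every direction below rests on the labels. The 12 epithelial markers summed to 3346 to 4837 CPM in the tumours labelled KO and 6455 to 8533 CPM in those labelled WT. The 16 macrophage markers summed to 25360 to 32016 CPM in the tumours labelled KO and 10209 to 17828 CPM in those labelled WT, although the sort was for EpCAM. Neither list overlapped between the groups.

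LXR and RXR bind DR4 elements, a pair of half-sites in the same direction with 4 bases between them. RefSeq promoter windows (GRCm38.p6, 250 bases before to 50 after a start) were at hand for 7 of the 10 genes, and not for Abcg1, Lpl and Npc1. On both strands, the full motif (AGGTCA, any 4 bases, AGGTCA) was in 0.0152% of all 32851 windows and in none of those 7 genes. The looser motif (GGTNA, any 5 bases, GGTNA), which every full motif also contains, was in 0.718% of all windows and, among the members, in that of Abca1 alone. Of 57 other genes of cholesterol handling with a window, Srebf1 and Fasn held it, both of them known LXR-responsive genes of fatty acid synthesis. The 250 bases before the start are shown for these 3 genes, read in the direction of the gene (minus strand), at chr4:53159896-53160145 for Abca1, chr11:60210472-60210721 for Srebf1 and chr11:120824548-120824797 for Fasn. Capitals mark the motif, which lies on the strand opposite to the gene.
Abca1: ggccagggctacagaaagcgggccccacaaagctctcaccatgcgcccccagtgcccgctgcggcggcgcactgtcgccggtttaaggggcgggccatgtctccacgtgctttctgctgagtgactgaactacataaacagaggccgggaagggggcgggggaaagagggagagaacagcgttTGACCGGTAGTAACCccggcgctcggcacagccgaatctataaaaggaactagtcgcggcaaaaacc
Srebf1: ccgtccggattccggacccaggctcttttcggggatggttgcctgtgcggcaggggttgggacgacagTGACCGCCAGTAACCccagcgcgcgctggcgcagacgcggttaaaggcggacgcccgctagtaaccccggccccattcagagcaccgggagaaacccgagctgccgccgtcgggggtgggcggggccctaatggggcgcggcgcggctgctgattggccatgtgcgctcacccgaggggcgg
Fasn: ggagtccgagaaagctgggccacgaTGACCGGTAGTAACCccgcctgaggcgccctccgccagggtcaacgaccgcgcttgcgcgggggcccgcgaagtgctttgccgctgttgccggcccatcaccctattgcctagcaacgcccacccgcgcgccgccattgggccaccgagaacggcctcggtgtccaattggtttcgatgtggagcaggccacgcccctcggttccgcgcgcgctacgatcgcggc
Read in the direction of the motif the element was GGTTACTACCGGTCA in Abca1 and in Fasn, and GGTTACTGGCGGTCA in Srebf1. It lay 67 to 53 bases before the Abca1 start, 182 to 168 before the Srebf1 start shown, and 225 to 211 before the Fasn start. A match is a stretch of letters, and no binding was measured. Of the 3 genes that hold it, Abca1 was higher and Srebf1 lower in the tumours labelled KO, and Fasn did not pass the test, with values and scalings given below.

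The LXR genes stood far apart in level. Nr1h2 codes for LXR beta, which is made in most tissues, and Nr1h3 for LXR alpha, known from liver, fat, gut and macrophages. Nr1h2 (chromosome 7, 44549616 to 44553965) was at 95.4, 97.4, 92.9 and 98.7 CPM in replicates 1 to 4 labelled KO, against 103, 85.0, 104 and 93.0 CPM in replicates 1 to 4 labelled WT. The tumours labelled KO lay within the range of those labelled WT, and the log2 fold change, labelled KO minus labelled WT, was −0.0014 ± 0.078 (SE). Nr1h3 (chromosome 2, 91184061 to 91195035) was at 10.2, 7.91, 12.4 and 5.52 CPM in the tumours labelled KO, against 4.74, 5.96, 5.20 and 6.48 CPM in those labelled WT. KO replicates 1 to 3 lay above all tumours labelled WT and KO replicate 4 lay among them, so the groups overlapped. For Nr1h3 the log2 fold change was 0.68 ± 0.25, from 91 to 206 counts per tumour.

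Of the efflux transporters, Abca1 separated the groups and Abcg1 did not. ABCA1 loads phospholipid and cholesterol onto lipid-poor apolipoproteins, and ABCG1 onto formed particles. Abca1 (chromosome 4, 53030789 to 53159895) was at 556, 524, 484 and 573 CPM in replicates 1 to 4 labelled KO, against 297, 217, 239 and 289 CPM in replicates 1 to 4 labelled WT. Every tumour labelled KO lay above every tumour labelled WT, with means of 534 ± 39.2 CPM labelled KO and 261 ± 38.9 CPM labelled WT (SD, n = 4 each). The log2 fold change was 1.04 ± 0.12 (SE), 2.05-fold, and stayed at 0.96 to 1.11 when any 1 tumour was left out. Abcg1 (chromosome 17, 31057694 to 31117981) was at 83.6, 87.6, 99.8 and 109 CPM in the tumours labelled KO, against 69.96, 59.6, 268 and 87.0 CPM in those labelled WT. WT replicate 3 stood alone at 268 CPM, WT replicate 4 lay among the tumours labelled KO, and WT replicates 1 and 2 lay below them. For Abcg1 the log2 fold change was −0.35 ± 0.45 with that tumour and 0.40 without it.

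**Figure D1:**
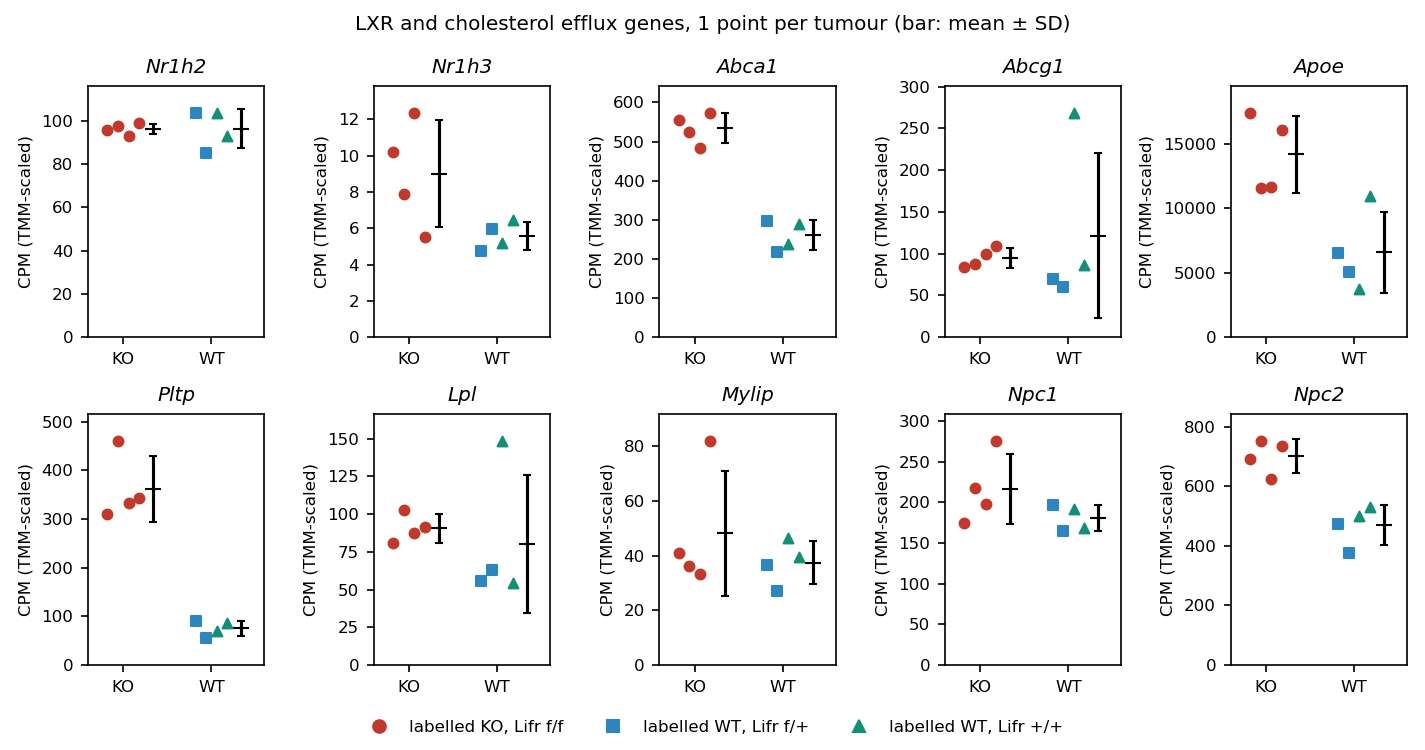
Level of each of the 10 genes in every tumour, in TMM-scaled CPM on a linear axis that starts at 0, with tumours labelled KO on the left and labelled WT on the right; each point is 1 tumour, its shape and colour give the Lifr genotype, and the bar beside each group is the mean ± SD (n = 4). On this scale Abca1, Apoe, Pltp and Npc2 do not overlap between the groups, and WT replicate 3 lies apart at 268 CPM for Abcg1 and 149 CPM for Lpl.

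Among the lipoprotein genes, Pltp had the largest difference of the 10 members. Pltp (chromosome 2, 164839518 to 164857708) was at 309.7, 461, 333 and 344 CPM in replicates 1 to 4 labelled KO, against 89.3, 55.5, 70.2 and 86.8 CPM in replicates 1 to 4 labelled WT. Every tumour labelled KO lay far above every tumour labelled WT. The means were 362 ± 67.7 CPM labelled KO and 75.5 ± 15.8 CPM labelled WT (SD, n = 4 each), and the log2 fold change was 2.26 ± 0.19 (SE), 4.80-fold, with a range of 2.13 to 2.35 when any 1 tumour was left out. Over the exons of all its annotated transcripts (2562 bases), Pltp shares 495 bases (19.3%) with Ctsa on the opposite strand. The counted Pltp transcript has 1788 bases, and the shared part of it was not computed. Counting was set to the plus strand, and the strandedness of the libraries is not stated. Ctsa, which codes for a lysosomal carboxypeptidase, was itself higher, at 988 ± 57.2 CPM in the tumours labelled KO and 568 ± 88.3 CPM in those labelled WT (log2 fold change 0.80 ± 0.13, edgeR adjusted p = 0.00600). Its part in the Pltp counts was not tested.

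Apoe was among the most abundant transcripts of these libraries. Apoe (chromosome 7, 19696244 to 19699188) was at 17409.5, 11605, 11658 and 16104 CPM in replicates 1 to 4 labelled KO, against 6525, 5065, 3739 and 10994 CPM in replicates 1 to 4 labelled WT. Of all counts it took 1.10% to 1.55% in each tumour labelled KO, against 0.392% to 1.15% in each labelled WT, and it ranked between 2 and 5 among all genes by count. By share of counts, WT replicate 4 (1.15%) lay above KO replicates 2 and 3, so the groups overlapped there and stood apart only after TMM scaling. The log2 fold change was 1.11 ± 0.33 (SE), and 0.91 without WT replicate 3 or 1.47 without WT replicate 4. Lpl, which codes for lipoprotein lipase (chromosome 8, 68880555 to 68906932), was at 80.6, 103, 87.2 and 91.2 CPM in the tumours labelled KO, against 55.7, 62.9, 149 and 54.4 CPM in those labelled WT. The tumours labelled KO lay above WT replicates 1, 2 and 4 and below WT replicate 3, the same tumour that was high in Abcg1. For Lpl the log2 fold change was 0.17 ± 0.32, and 0.65 without WT replicate 3.

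Mylip (chromosome 13, 45389742 to 45411940) was at 41.1, 36.1, 33.5 and 82.1 CPM in replicates 1 to 4 labelled KO, against 36.7, 27.2, 46.4 and 39.5 CPM in replicates 1 to 4 labelled WT. KO replicate 4 was high and the other tumours of both labels shared 1 range. The log2 fold change was 0.37 ± 0.30 with that tumour and −0.031 without it.

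Of the lysosomal pair, the soluble protein NPC2 hands cholesterol to NPC1 in the lysosomal membrane, and loss of either stores cholesterol in lysosomes. Npc2 (chromosome 12, 84754559 to 84773112) was at 693, 754, 624 and 735 CPM in replicates 1 to 4 labelled KO, against 475, 375, 501 and 531 CPM in replicates 1 to 4 labelled WT. The groups did not overlap, with means of 702 ± 57.5 CPM labelled KO and 470.3 ± 67.8 CPM labelled WT (SD, n = 4 each) and a log2 fold change of 0.58 ± 0.13 (SE). Npc1 (chromosome 18, 12189694 to 12236386) was at 174, 218, 198 and 276 CPM in the tumours labelled KO, against 197, 165, 192 and 169 CPM in those labelled WT. The groups overlapped, KO replicate 4 was the highest tumour, and the log2 fold change was 0.26 ± 0.14. Over the exons of all its annotated transcripts (11317 bases), Npc1 shares 511 bases (4.52%) with Rmc1 on the opposite strand, whose log2 fold change was 0.017. The counted Npc1 transcript has 5182 bases, and the shared part of it was not computed.

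In the edgeR quasi-likelihood fit across all 14728 tested genes, with Benjamini-Hochberg adjustment and an adjusted p under 0.05 as the threshold, Abca1, Apoe, Pltp and Npc2 passed as higher in the tumours labelled KO under TMM scaling, Abca1 and Npc2 with the opposite sign on the macrophage scale described below. That is 4 of 10 members, beside 21.8% of all genes called in either direction and 11.1% called as higher. None passed as lower, beside 10.8% of all genes, also at an unadjusted p under 0.05 or with DESeq2. The same 4 were those whose groups did not overlap in TMM-scaled CPM, a pattern shown by 25.5% of all genes tested, and by 19.8% together with a call. Since the members were named with this contrast in view, nothing is read from these counts. Apoe was past the threshold only narrowly, and its call was lost when any tumour but WT replicate 4 was left out. Nr1h3 did not pass by edgeR, but 5 members, Nr1h3 among them, were higher at an unadjusted p under 0.05 and with DESeq2. The median log2 fold change was 0.47 over the members and 0.011 over all genes tested.

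Set side by side per kilobase of transcript, Apoe led in both groups and Nr1h3 came last. In the tumours labelled KO, Apoe was at 11200 ± 2373 CPM per kilobase, followed by Npc2 at 215.5 ± 17.7 and Pltp at 202.5 ± 37.9, whose ranges overlapped. Abca1 (52.4 ± 3.84), Nr1h2 (47.8 ± 1.26) and Npc1 (41.8 ± 8.38) came next, each overlapping its neighbour. Lpl (22.4 ± 2.34), Abcg1 (16.4 ± 2.04), Mylip (16.2 ± 7.68) and Nr1h3 (4.63 ± 1.52) closed the order, and only Abcg1 and Mylip overlapped there. In the tumours labelled WT the order was Apoe (5194 ± 2490 CPM per kilobase), Npc2 (144.5 ± 20.8), Nr1h2 (47.9 ± 4.46), Pltp (42.2 ± 8.82), Npc1 (34.9 ± 3.06), Abca1 (25.5 ± 3.81), Abcg1 (20.9 ± 17.0), Lpl (19.9 ± 11.3), Mylip (12.6 ± 2.68) and Nr1h3 (2.88 ± 0.399). There the ranges of Nr1h2 and Pltp, Pltp and Npc1, Abca1 and Abcg1, Abcg1 and Lpl, and Lpl and Mylip overlapped.

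The label WT joins 2 Lifr genotypes, and the choice of members did not use the contrast between them. In a fit of the 3 genotypes with 1 shared estimate of the spread, 0 of 10 members passed between f/+ and +/+ tumours, beside 0.00654% of all 15284 genes tested. That share is 1 gene, BC018473, named here after its value was seen. By DESeq2, 0 members passed as well. At an unadjusted p under 0.05 only Abcg1 differed, lower in the f/+ tumours with a log2 fold change of −1.46 ± 0.44 (SE, n = 2 each, edgeR unadjusted p = 0.0111, adjusted p = 0.873). Of its 2 +/+ tumours, WT replicate 3 was at 268 CPM and WT replicate 4 at 87.0 CPM. Lpl was at −0.78 ± 0.39, and the other members lay between −0.43 (Mylip) and 0.0058 (Npc1).

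Against each control genotype alone, with the same tumours labelled KO in both comparisons, Pltp and Abca1 hardly moved. Pltp had a log2 fold change of 2.32 ± 0.26 against f/+ and 2.21 ± 0.26 against +/+ tumours. Abca1 was at 1.06 ± 0.17 against f/+ and 1.02 ± 0.17 against +/+. Apoe was at 1.29 ± 0.44 against f/+ and 0.95 ± 0.43 against +/+, and Npc2 at 0.73 ± 0.15 against f/+ and 0.45 ± 0.14 against +/+. Abcg1 turned round, at 0.56 ± 0.38 against f/+ and −0.90 ± 0.36 against +/+, and so did Lpl, at 0.61 ± 0.34 against f/+ and −0.17 ± 0.33 against +/+. Of the +/+ tumours only WT replicate 3 was high in both genes, at 268 CPM for Abcg1 and 149 CPM for Lpl. WT replicate 4 was at 87.0 CPM for Abcg1 and 54.4 CPM for Lpl. In this fit 13.3% of all genes passed against f/+ and 6.79% against +/+, and the members that passed were Pltp, Abca1 and Npc2 against f/+, and Pltp and Abca1 against +/+.

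**Figure D2:**
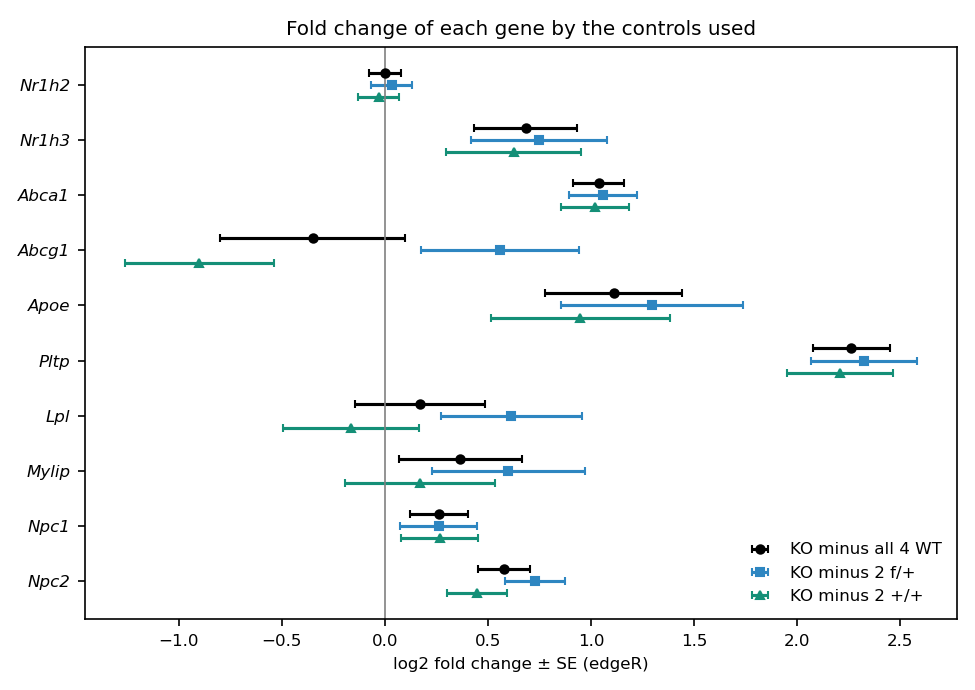
Log2 fold change ± SE of the 10 genes (edgeR) for the tumours labelled KO minus all 4 labelled WT (circles), minus the 2 f/+ tumours (squares) and minus the 2 +/+ tumours (triangles), which share the tumours labelled KO. Pltp lies at 2.21 to 2.32 and Abca1 at 1.02 to 1.06 with either control genotype, while Abcg1 and Lpl change sign. Of the +/+ tumours only WT replicate 3 is high in Abcg1 and Lpl.

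In bulk RNA, a larger share of cells of a type and more RNA per cell cannot be told apart. Of 16 macrophage markers 15 rose and 0 fell in the tumours labelled KO, beside 11.1% and 10.8% of all genes. None of the 16 was at 0, and their summed level was higher by 1.19 on the log2 scale (exact two-sided permutation p = 0.0286, the smallest that 4 against 4 allows, adjusted p = 0.0952 over 10 lists). Ccr2, the receptor that recruits monocytes, rose by a log2 fold change of 2.02 ± 0.26 (edgeR adjusted p = 0.00440). The summed macrophage difference of 1.19 was of the size of those of Abca1 (1.04) and Apoe (1.11), above that of Npc2 (0.58) and below that of Pltp (2.26). Single macrophage markers ran from a log2 fold change of 0.51 to the 2.02 of Ccr2. That range holds Abca1, Apoe and Npc2 and ends near Pltp. With libraries scaled to the macrophage list the log2 fold change was −0.14 for Abca1, 0.021 for Apoe and −0.61 for Npc2, and 1.09 for Pltp, while the median of all genes moved to −1.19. Pltp was the single member of the 10 above 0.1 on that scale. This scaling moves every gene by nearly the same amount, so the sign a gene takes there follows from its TMM value and is no test. The part of macrophage RNA in these differences was not tested.

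**Figure D3:**
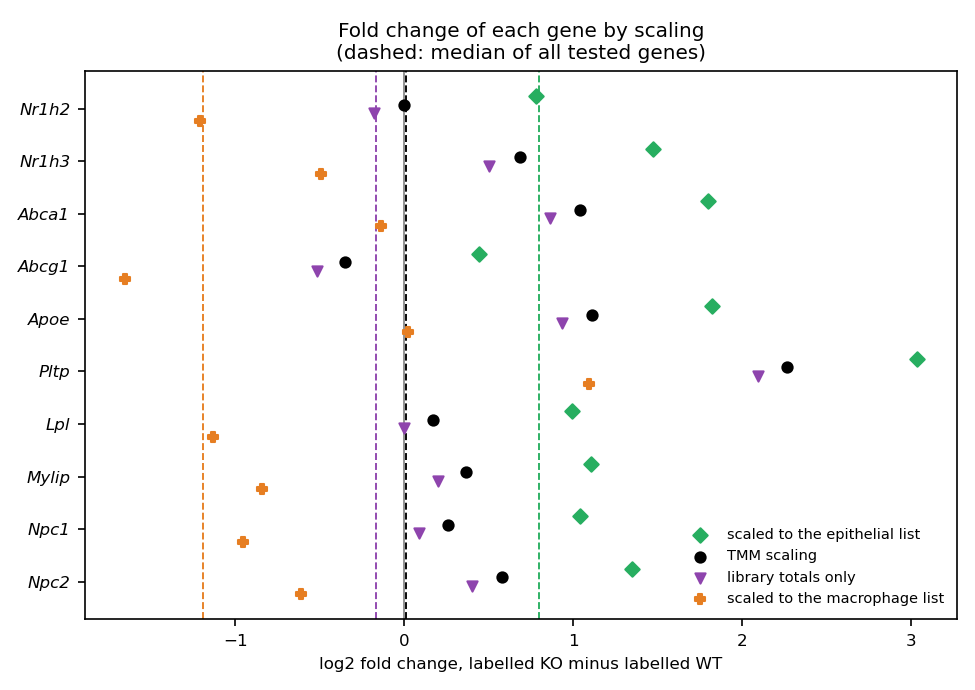
Log2 fold change of each gene, labelled KO minus labelled WT, with libraries scaled to the epithelial list (diamonds), by TMM (circles), by totals alone (triangles) or to the macrophage list (plus signs); dashed lines give the median of all tested genes under each scaling. Scaling shifts all 10 genes and the median together, and Pltp alone stays well above 0 under all 4.

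Of the other lists, 10 of 12 epithelial markers fell and 0 rose, beside 10.8% and 11.1% of all genes. Epcam, the antigen of the sort, was at a log2 fold change of −0.88 ± 0.13 (edgeR adjusted p = 0.00519). The epithelial list's summed level was lower by 0.87 (exact permutation p = 0.0286, adjusted p = 0.0952). Neutrophil markers summed to 82.1 to 126 CPM in the tumours labelled KO and 56.2 to 81.2 CPM in those labelled WT, also without overlap. Their summed level was higher by 0.49 on the log2 scale (exact permutation p = 0.0286, adjusted p = 0.0952). Of 7 tested neutrophil markers 1 rose and 0 fell, beside 11.1% and 10.8% of all genes. Csf3r was at a log2 fold change of 1.13 ± 0.21 and Mmp8 at −1.12 ± 0.39 (edgeR adjusted p = 0.00827 and 0.0714). Csf3r was at 52.4 to 78.3 CPM labelled KO and 23.3 to 40.6 CPM labelled WT, the largest single part of the neutrophil sum in every tumour. The other tested neutrophil markers had log2 fold changes of both signs. The separation of the sum is therefore not shown for them, and the sum without Csf3r was not tested. Fibroblast markers ranged over 768 to 4241 CPM in the tumours labelled KO and 409 to 1523 CPM in those labelled WT. Acinar markers ranged over 1844 to 41775 CPM in the tumours labelled KO and 336 to 8697 CPM in those labelled WT, both lists with overlap. The fibroblast sum was higher by 1.16 on the log2 scale (exact permutation p = 0.143, adjusted p = 0.286), near the 1.19 of the macrophage list. Of 10 fibroblast markers 2 rose and 0 fell, beside 11.1% and 10.8% of all genes. The acinar sum was higher by 3.19 (exact permutation p = 0.0857, adjusted p = 0.214), and 0 of 8 acinar markers were called. The part of either cell type in the member values was not tested. Adipocyte markers summed to 1.23 to 15.3 CPM in the tumours labelled KO and 1.35 to 47.5 CPM in those labelled WT. Endothelial, T and NK, B and erythroid markers each summed to at most 47.0 CPM in any tumour.

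**Figure D4:**
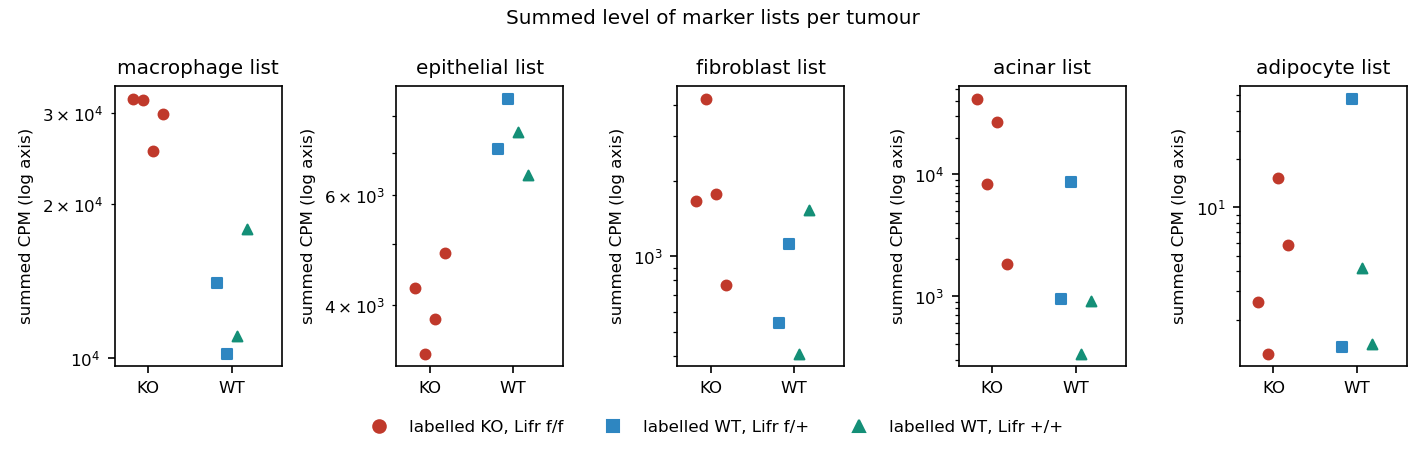
Summed CPM of 5 marker lists in each tumour, on log axes, with tumours labelled KO on the left and labelled WT on the right and the Lifr genotype by shape and colour. Macrophage sums (25360 to 32016 CPM labelled KO, 10209 to 17828 CPM labelled WT) and epithelial sums separate the groups, whereas fibroblast, acinar and adipocyte sums overlap.

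The other genes of cholesterol handling, 80 in 7 lists drawn from textbook knowledge, moved in both directions. The lists were chosen with earlier results of these data known, so the counts of calls per list are a description. Of the 77 tested, 7 rose and 9 fell in the tumours labelled KO, beside 11.1% and 10.8% of all genes, and their median log2 fold change was 0.024. For 77 genes these counts are near those shares. Without KO replicate 2, WT replicate 1 or WT replicate 3 there were 8 calls in place of 16.

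Among 8 tested partners and coregulators of LXR, only Rxra passed, beside 21.8% of all genes. Rxra codes for the RXR that pairs with LXR and with many other receptors. It was at 175, 162, 135 and 191 CPM in the tumours labelled KO, against 110.3, 93.1, 116 and 109 CPM in those labelled WT, without overlap. The log2 fold change was 0.63 ± 0.12 (edgeR adjusted p = 0.00871), and it was −0.58 with libraries scaled to the macrophage list. The corepressor gene Ncor1 and the coactivator genes Ncoa1, Ncoa2 and Med1 did not pass.

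Called LXR targets outside the members lay on both sides. In the lipogenic list 1 of 10 rose and 2 fell, beside 11.1% and 10.8% of all genes. For 10 genes these counts are near those shares, and the median log2 fold change was −0.14. Srebf1, which codes for the main activator of fatty acid synthesis genes, was at 131, 112, 116 and 112 CPM in the tumours labelled KO, against 149, 142, 209 and 145 CPM in those labelled WT. The tumours did not overlap, WT replicate 3 was the highest, and the log2 fold change was −0.45 ± 0.13 (edgeR adjusted p = 0.0429), but 0.34 on the scale of the epithelial list. Its call was lost when WT replicate 1 or any 1 tumour labelled KO was left out (highest edgeR adjusted p = 0.116). Fasn, the fatty acid synthase gene that shares the Abca1 promoter element, was at 186 ± 25.8 CPM in the tumours labelled KO and 213 ± 11.2 CPM in those labelled WT and did not pass (log2 fold change −0.20 ± 0.11, edgeR adjusted p = 0.216). Scd2, a fatty acid desaturase gene, fell to 264 ± 38.1 CPM in the tumours labelled KO, against 513 ± 108 CPM in those labelled WT (−0.96 ± 0.16, edgeR adjusted p = 0.00697). Mlxipl, which codes for the sugar-sensing activator ChREBP, rose to 38.2 ± 13.1 CPM in the tumours labelled KO, against 18.5 ± 5.07 CPM in those labelled WT (1.05 ± 0.28, edgeR adjusted p = 0.0317, but −0.12 on the macrophage scale). The groups overlapped in Mlxipl, and its call survived the omission of KO replicate 4 or WT replicate 4 but of no other tumour (edgeR adjusted p up to 0.0822).

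In the list of other LXR targets 2 of 10 rose and 0 fell, beside 11.1% and 10.8% of all genes. The median log2 fold change was 0.59, while 1 gene was lower at an unadjusted p under 0.05 and by DESeq2. Apoc2, which codes for the activator of lipoprotein lipase, rose to 68.5 ± 14.9 CPM in the tumours labelled KO, against 34.5 ± 12.9 CPM in those labelled WT (0.99 ± 0.25, edgeR adjusted p = 0.0257). Mertk, a receptor for dying cells on macrophages, rose to 224 ± 50.6 CPM in the tumours labelled KO, against 143 ± 27.9 CPM in those labelled WT (0.65 ± 0.18, edgeR adjusted p = 0.0354). Both calls depended on single tumours. Omitting KO replicate 1 or 4, or any of WT replicates 1 to 3, ended that of Apoc2 (edgeR adjusted p up to 0.0710). Omitting any 1 tumour but WT replicate 1 ended that of Mertk (edgeR adjusted p up to 0.0774). With libraries scaled to the macrophage list Apoc2 was at −0.14 and Mertk at −0.54.

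Among 12 lipoprotein receptors and acceptors 2 rose, the scavenger receptor genes Cd36 and Msr1, and 1 fell, Vldlr. Over all genes 11.1% rose and 10.8% fell. For 12 genes these counts are near those shares, and the median log2 fold change was −0.00066. Cd36 was at 40.2, 50.5, 60.8 and 55.6 CPM in the tumours labelled KO, against 7.61, 17.8, 7.08 and 25.8 CPM in those labelled WT, without overlap (log2 fold change 1.83 ± 0.40, edgeR adjusted p = 0.0147). Msr1, a macrophage receptor for modified LDL, was at 348 ± 81.1 CPM in the tumours labelled KO and 179 ± 63.7 CPM in those labelled WT (0.96 ± 0.25, edgeR adjusted p = 0.0269), with −0.18 on the macrophage scale. Omitting KO replicate 1 or 2, or any of WT replicates 1 to 3, ended the Msr1 call (edgeR adjusted p up to 0.0699). Vldlr, the very low density lipoprotein receptor gene and a known target of MYLIP at the protein level, was at 11.3, 13.6, 16.5 and 10.9 CPM in the tumours labelled KO, against 31.4, 40.7, 25.8 and 22.7 CPM in those labelled WT. The groups stood apart, with a log2 fold change of −1.21 ± 0.21 (edgeR adjusted p = 0.00693).

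Inside the cell, Soat1, which codes for the enzyme that esterifies cholesterol for storage, was the only gene of 15 to pass. Over all genes tested 21.8% passed. It was at 207, 234, 214 and 207 CPM in the tumours labelled KO, against 128, 136, 136 and 163 CPM in those labelled WT. The tumours labelled KO lay close together and above all of those labelled WT (log2 fold change 0.61 ± 0.092, edgeR adjusted p = 0.00496), and the value was −0.58 with libraries scaled to the macrophage list. None of 6 tested partners of lipoprotein lipase and related lipases passed by edgeR, though 2 were higher at an unadjusted p under 0.05 and 1, Lmf1, by DESeq2. Lmf1, needed for the folding of lipases, was at 0.40 ± 0.12 on the log2 scale (edgeR adjusted p = 0.0503), and the hepatic lipase gene Lipc at 0.95 ± 0.37 (0.103).

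Sterol synthesis under SREBP2, the arm that low cholesterol switches on, leaned the other way. Of 16 genes 6 fell and 0 rose, beside 10.8% and 11.1% of all genes, with a median log2 fold change of −0.31. At an unadjusted p under 0.05, 11 were lower and 0 higher (7 lower and 0 higher by DESeq2). Sqle, which codes for squalene epoxidase, was at 59.5, 45.4, 59.6 and 48.4 CPM in the tumours labelled KO, against 77.9, 70.5, 84.0 and 73.7 CPM in those labelled WT, without overlap (−0.52 ± 0.11, edgeR adjusted p = 0.0123). Fdft1, of squalene synthesis, fell by 0.53 ± 0.14 and Fdps by 0.49 ± 0.12 on the log2 scale (edgeR adjusted p = 0.0266 for Fdft1 and 0.0234 for Fdps). Omitting KO replicate 2 or 3, or WT replicate 1 or 3, ended the Fdps and Fdft1 calls, and omitting KO replicate 4 or WT replicate 4 also ended that of Fdft1 (edgeR adjusted p up to 0.0719 for Fdps and 0.0770 for Fdft1). Scaling to the epithelial list instead lifts the median of all genes to 0.80, and there Sqle, Fdps and Fdft1 lay at 0.24 to 0.28. In the same tumours the epithelial list was lower by 0.87 on the log2 scale, and its part in the sterol synthesis values was not tested.

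**Figure D5:**
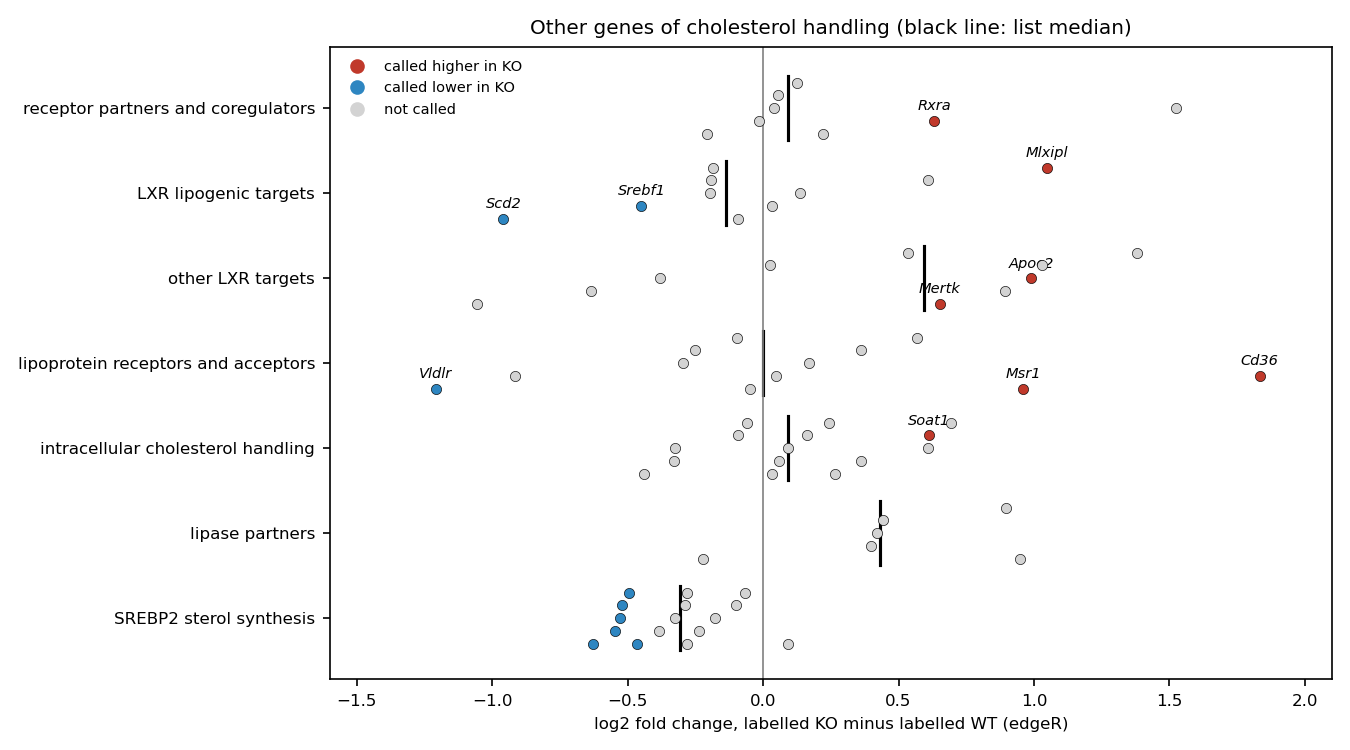
Log2 fold change, labelled KO minus labelled WT, under TMM scaling of 77 tested genes of cholesterol handling in 7 lists; each point is a gene, red where edgeR called it higher and blue lower in the tumours labelled KO at an adjusted p under 0.05, and black lines are list medians. The points of Cd36, Msr1, Rxra and Soat1 lie to the right, and 6 points of the sterol synthesis list lie called on the left, from Lss at −0.63 to Hmgcs1 at −0.47; scaling to the macrophage list turns Rxra, Msr1 and Soat1 to the left, and scaling to the epithelial list turns Sqle, Fdps and Fdft1 to the right.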

How the data were processed

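The authors deposited raw gene counts and FPKM values. Per the file headers, the deposited counts are tags in exons of mm10 RefSeq transcripts from HOMER's analyzeRepeats.pl set to the plus strand and to 1 transcript for each gene, and the FPKM values come from the same program with a normalization setting of 1000000. The submitters' processing notes also name FastQC 0.11.2, STAR 2.4.0k and edgeR 3.6.8. The counts were 73.5% to 80.2% of the totals in the headers. Library kit and strandedness are not given in the sources used here.

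Groups were taken from the sample titles, and replicate numbers follow listing order. Tests ran in edgeR 4.0.16 under R 4.3.3 (quasi-likelihood, TMM, filterByExpr with a minimum count of 10 and total of 15) with a Benjamini-Hochberg adjusted p under 0.05 as the call. The TMM factor ranged over 0.890 to 0.965 for tumours labelled KO, against 1.05 to 1.10 for those labelled WT. Every pair of libraries differed by more than counting noise (lowest chi-square over its degrees of freedom 32.4). DESeq2 1.42.0 and limma 3.58.1 (on log2 of FPKM plus 1 or 0.1) were alternatives. Marker lists were compared as summed CPM by an exact permutation test over 70 assignments. The edgeR fit was also run on simulated counts in which few genes changed, at random in both directions. That run does not bear on the choice of scaling. Base positions of motifs count back from the first base before the start.

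The members and all lists were chosen with earlier results of these data known. Named genes were the members, Lifr, up to 4 called genes per pathway list with the smallest p (up to 2 where none was called) and at most 2 markers per list. Ctsa, Rmc1 (listed under an older symbol), Fasn, Lss, Hmgcs1, Ncor1, Ncoa1, Ncoa2 and Med1 were named beside these after their values were seen. Some genes the rule would name are not reported here.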

Additional observations from a re-analysis of the deposited data

Results flagged for a closer look

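A gap test asked in each group of 4 whether 1 tumour lay far from the other 3, over 72 groups of values, of which 10 were flagged. Chance alone flags about 1 group in 20 where values are normally distributed and groups are independent. Here the values were CPM without logs and several flags share WT replicate 3, so the 10 are not measured against that rate.

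Among the members, Abcg1 was at 268 CPM in WT replicate 3, with 59.6 to 87.0 CPM in the other tumours labelled WT. Lpl was at 149 CPM in the same tumour, with 54.4 to 62.9 CPM in the others. Mylip was at 82.1 CPM in KO replicate 4, with 33.5 to 41.1 CPM in the other tumours labelled KO.

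WT replicate 3, a +/+ tumour, also stood apart in Scd2 (673 CPM, others labelled WT 437 to 474 CPM) and in Srebf1 (209 CPM, others 142 to 149 CPM). Its acinar sum (336 CPM) and fibroblast sum (409 CPM) were the lowest of the 8 tumours.

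Apoc2 was at 53.7 CPM in WT replicate 4, with 26.6 to 30.3 CPM in the others. Mertk was at 299.7 CPM in KO replicate 4, with 194 to 203 CPM in the others. Msr1 was at 469 CPM in KO replicate 1, with 298 to 319 CPM in the others. The adipocyte list summed to 47.5 CPM in WT replicate 2, with 1.35 to 4.17 CPM in the others, and the acinar list to 8697 CPM there, with 336 to 941 CPM in the others.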

How the results depend on the processing

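The count of all called genes (3216) was 10576 with libraries scaled to the epithelial list, 12699 scaled to the macrophage list, 1926 with only f/+ controls, 1106 with only +/+ controls and 1755 to 3241 with 1 tumour left out (1755 without KO replicate 2, 2077 without WT replicate 3). The share of calls that were higher was 50.7%, but 22.5% with library totals alone, 23.5% from FPKM, 98.8% on the epithelial and 0.661% on the macrophage scale, and over all genes the median log2 fold change was −0.17, −0.16 (pseudocount 0.1), 0.80 and −1.19 in that order. Of the members, 4 were called, against 5 by DESeq2, 9 on the epithelial scale and 7 on the macrophage scale (1 higher and 6 lower). There were 2 with only +/+ controls, 6 with only f/+ controls, and 3 to 4 with 1 tumour left out. Of the other pathway genes 16 were called, against 26 with library totals, 22 by DESeq2, 24 from FPKM, 53 and 62 on the epithelial and macrophage scales, 10 and 7 with only f/+ or +/+ controls, and 8 to 19 with 1 tumour left out. Between f/+ and +/+ tumours 1 gene was called, against 2 in a fit of the 4 tumours labelled WT alone and 55 by DESeq2.

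On the macrophage scale the log2 fold change turned round for Abca1 (−0.14), Npc2 (−0.61), Lifr (−0.28), Rxra (−0.58), Mlxipl (−0.12), Apoc2 (−0.14), Mertk (−0.54), Msr1 (−0.18), Soat1 (−0.58), Lmf1 (−0.80) and Lipc (−0.20). On the epithelial scale it turned for Srebf1 (0.34), Sqle (0.25), Fdps (0.28) and Fdft1 (0.24). These lists cover the called members, Lifr and the named pathway genes, and leave out members that were not called. Both scalings shift every gene by construction. No other alternative reversed a called member. No paired analysis was possible because the labels give the tumours no shared replicate number. Among the members, Nr1h3 had the fewest counts, at 91 to 206 per tumour.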
